A study of Mus musculus with 20 samples.

Results

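The 10 long noncoding RNAs described here were Gm39465, Miat, Mirt1, 4930447F24Rik, Meg3, Rian, Mirg, Malat1, Neat1 and Snhg11. They were taken by name from the 29200 genes of a count table of mouse cerebellum, and all 10 passed the filter of a mean of at least 50 counts per library that left 12153 genes for testing. The first 4 were listed because their measured values differed strongly between the groups of this same table. Their differences are therefore given as a description without a p-value, and calls that include them are counts of the same kind. The other 6 were listed as abundant transcripts to set beside them, and their differences were tested. Per kilobase of exon, however, Mirg and Neat1 stood above only 38.4% and 23.7% of the tested genes.

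RNA was sequenced from the cerebellum of C57BL6/N mice in 4 groups of 5. WT/WT mice carried unmodified Atxn3, the gene of the deubiquitinase ataxin-3 that is expanded in spinocerebellar ataxia type 3, on both alleles, and 304Q/304Q mice carried on both alleles an interrupted CAA/CAG tract of 304 repeats, inserted into the endogenous gene with a zinc-finger nuclease. Each genotype was sampled at 2 months and at 12 months. Only males were sequenced, the 304Q animals descended from a single founder line, and all tissue came from whole cerebellum, so every cell type of that tissue contributed RNA. Total counts per library ran from 11385380 to 27636687. Atxn3 itself had a mean of 19.4 CPM (the gene's counts relative to the library total, scaled for library composition) in WT/WT and 13.4 CPM in 304Q/304Q mice at 2 months, and 15.5 and 14.2 CPM at 12 months, and neither difference passed the test (edgeR quasi-likelihood test, adjusted p = 0.0916 and 0.510).

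Long noncoding RNAs are capped like messenger RNAs, many are spliced, and many stay in the nucleus. They are not known to act through a protein that they encode. Malat1 collects in nuclear speckles, where splicing factors are stored, and Neat1 is the scaffold on which paraspeckle proteins assemble. Miat, also known as Gomafu, is a neuronal nuclear RNA that binds the splicing factors Sf1, Qk and Celf3 through repeats of a short motif. Meg3, Rian and Mirg are read in the same direction from the maternal copy of the imprinted Dlk1-Dio3 domain, in which Rian carries small nucleolar RNAs (snoRNAs) and Mirg carries a large group of microRNAs. Snhg11 is a host transcript of snoRNAs and is strongly expressed in neurons. Mirt1 was first described in the infarcted heart, and Gm39465 and 4930447F24Rik have no role known well enough to state.

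In the GRCm38 annotation (GENCODE M21) 9 of the 10 genes had a noncoding class. Snhg11 (chr2:158375638-158386145, plus strand) was listed there as protein coding, and 4930447F24Rik (chr9:108133718-108138567, plus strand) lay inside Bsn, the gene of the presynaptic protein Bassoon, on the opposite strand and with 0 exonic bases in common. Gm39465 (chr9:122019528-122051463, minus strand), Miat (chr5:112213228-112229395, minus strand) and Mirt1 (chr19:53443230-53464796, minus strand) were intergenic noncoding genes, each with a lowly counted noncoding gene on the other strand. Gm26953 shared 2260 exonic bases with Miat, and was counted at 0.0261 CPM, and the strand setting of the counting was not given in the sources used here. Malat1 (chr19:5795690-5802672) and Neat1 (chr19:5824708-5845478) were neighbours on the minus strand. Meg3 (chr12:109541001-109571726), Rian (chr12:109603940-109661716) and Mirg (chr12:109729764-109749460) followed each other on the plus strand of the chromosome that also carries the edited Atxn3 gene, 7.58, 7.65 and 7.77 megabases beyond it.

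The start regions of the gene with the largest decrease, the gene with the largest increase and the most abundant imprinted gene are shown first, because they differ in composition. Each is the RefSeq window of GRCm38.p6 from 250 bases before to 50 bases after the annotated start, printed in the direction of transcription. Capitals mark a cAMP response element (TGACGTCA), a TATA box (TATAAA), a GC box (GGGCGG) or a CCAAT box (CCAAT), searched on both strands.
Gm39465, chr9:122051459-122051758, minus strand: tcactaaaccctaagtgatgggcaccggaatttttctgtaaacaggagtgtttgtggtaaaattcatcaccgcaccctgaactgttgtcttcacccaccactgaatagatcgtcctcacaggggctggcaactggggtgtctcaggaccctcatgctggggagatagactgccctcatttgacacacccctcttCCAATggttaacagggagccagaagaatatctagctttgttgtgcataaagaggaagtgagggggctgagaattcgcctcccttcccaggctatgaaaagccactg
Miat, chr5:112228899-112229198, minus strand: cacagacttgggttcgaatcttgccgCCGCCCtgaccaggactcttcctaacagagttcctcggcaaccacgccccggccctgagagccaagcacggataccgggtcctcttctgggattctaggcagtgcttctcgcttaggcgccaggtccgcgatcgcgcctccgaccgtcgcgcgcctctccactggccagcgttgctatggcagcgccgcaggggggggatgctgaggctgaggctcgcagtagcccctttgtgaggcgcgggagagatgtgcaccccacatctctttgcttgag
Meg3, chr12:109540746-109541045, plus strand: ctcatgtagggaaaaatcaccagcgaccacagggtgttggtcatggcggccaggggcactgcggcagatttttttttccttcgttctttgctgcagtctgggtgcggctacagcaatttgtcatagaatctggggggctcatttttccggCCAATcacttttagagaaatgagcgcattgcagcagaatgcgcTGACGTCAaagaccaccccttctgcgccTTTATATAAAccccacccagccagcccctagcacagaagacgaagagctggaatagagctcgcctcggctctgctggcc
The Meg3 window held the cAMP response element, which 1.79% of the 32851 windows of all genes hold, 57 bases before the start, and TATA boxes on both strands that overlap each other 29 and 25 bases before it. TATA boxes occurred in 13.62%, GC boxes in 35.66% and CCAAT boxes in 37.41% of all windows. The Miat window was rich in CpG, with 25 CpG and 64.3% G and C, against medians of 7 CpG and 52.7% over all windows, and its only match was a GC box. The Gm39465 window held 4 CpG and a CCAAT box. Of the other members, RefSeq windows were at hand for all but Neat1, and those of Mirt1, Malat1, Snhg11 and Rian held none of these letter strings. These matches describe the sequence and were not tested for function.

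The motif by which Miat binds splicing factors, ACTAAC, occurred 11 times in its longest annotated transcript of 9163 bases. That density of 1.20 per kilobase was reached by 2 of 4189 genes with a transcript of at least 5000 bases, Miat included, and the median density was 0.11 per kilobase. No other member exceeded 0.26 per kilobase, the value of Mirg. A stretch of 143 bases, from base 4936 to base 5078 of the transcript, held 4 copies, given in capitals.
Miat repeat stretch: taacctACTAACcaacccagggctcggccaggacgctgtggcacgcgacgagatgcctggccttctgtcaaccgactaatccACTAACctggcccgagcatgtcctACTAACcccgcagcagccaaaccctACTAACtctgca

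Mirg and Meg3 are shown with microRNAs that lie in their exons, since the libraries measured the host transcripts and not the microRNAs. Of 26 mature microRNAs within Mirg 8 lay wholly in annotated exons, all 3 within Meg3 did so, and 0 of the 6 within Rian did. Seeds (bases 2 to 8) are in capitals and differ from each other.
miR-770-5p, in Meg3: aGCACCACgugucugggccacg
miR-134-5p, in Mirg: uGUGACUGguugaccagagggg
miR-377-3p, in Mirg: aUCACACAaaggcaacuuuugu
miR-410-3p, in Mirg: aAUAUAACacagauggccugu

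The 10 RNAs spanned a wide range of levels. Per kilobase of annotated exon (RPKM), WT/WT mice at 12 months had the most Snhg11, at 110 ± 19.5 (SD, n = 5), followed by Meg3 at 64.7 ± 7.57, Malat1 at 30.8 ± 2.67 and Rian at 15.7 ± 1.64. The next RPKM values were 6.29 ± 1.65 for 4930447F24Rik, 4.66 ± 1.27 for Mirg and 3.53 ± 0.540 for Neat1, and neighbours among these 3 differed by less than the sum of their SDs. Mirt1 had 1.22 ± 0.260 RPKM, and Miat (0.746 ± 0.120) and Gm39465 (0.677 ± 0.107) differed by less than their SDs. By CPM over all 20 libraries Meg3 ranked 37th and Snhg11 82nd of the 12153 tested genes, whereas Gm39465 ranked 12031st. The selection of polyadenylated RNA bears on the levels of Malat1 and of the long form of Neat1, whose ends are not polyadenylated in the usual way.

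In the comparison of genotypes at 2 months 0 of the 10 RNAs were called (edgeR quasi-likelihood test, adjusted p not above 0.05, and a change in log2 level no smaller than 0.5 either way), while 5 of 10 had an unadjusted p below 0.05 and the DESeq2 Wald test called 2, Gm39465 and 4930447F24Rik. Over all 12153 genes 674 had an unadjusted p below 0.05 and DESeq2 called 8. The background was 1 called gene of 12153, or 0.00823%. At 12 months 6 of the 10 were called, with Miat, Rian and Snhg11 higher and Gm39465, Mirt1 and 4930447F24Rik lower in 304Q/304Q mice, against 3.09% of all tested genes (1.26% higher and 1.83% lower). As 4 of those 6 had been chosen by their values in these groups, this count says nothing about noncoding RNAs as a class. The counts at 2 months likewise include such members, both DESeq2 calls among them, and nothing is read from those counts. Among the 332 other tested genes of long noncoding classes 5 were called higher and 10 lower at 12 months, 4.52%. Fewer cells of a type and less RNA per cell cannot be told apart in such whole-tissue libraries.

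**Figure D1:**
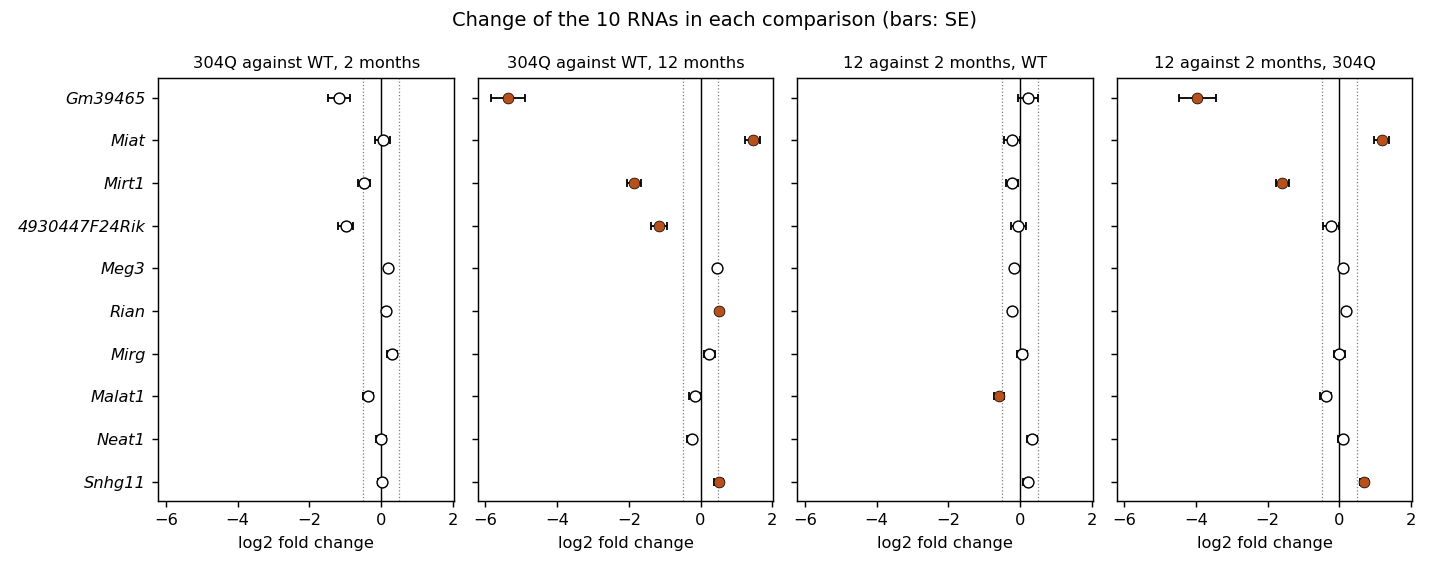
Log2 fold change (x axis) of the 10 RNAs (y axis) in 4 comparisons, with bars for the SE, filled points for called differences and dotted lines at a log2 fold change of 0.5 in size. Filled points are absent at 2 months, number 6 at 12 months, and Gm39465 lies farthest from 0 at -5.37.

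Gm39465 showed the largest difference. In WT/WT mice its level was 7.35, 8.20, 3.77, 5.94 and 3.13 CPM at 2 months and 7.55, 7.68, 6.65, 5.11 and 6.21 CPM at 12 months. In 304Q/304Q mice it was 4.20, 1.12, 2.04, 1.63 and 3.02 CPM at 2 months and 0.144, 0, 0.262, 0.0762 and 0.280 CPM at 12 months. The groups overlapped at 2 months, where only the highest 304Q/304Q mouse reached into the WT/WT range, and were far apart at 12 months. The aged 304Q/304Q libraries held 10 counts of this gene in all, between 0 and 4 per mouse, against 73 to 111 per WT/WT mouse of that age. The log2 fold change between genotypes was -1.17 ± 0.30 (SE) at 2 months and -5.37 ± 0.47 at 12 months, and the latter rests on so few counts that its size depends on the prior count of the fit. From 2 to 12 months the fitted log2 difference was 0.23 ± 0.28 for WT/WT and -3.96 ± 0.51 for 304Q/304Q mice.

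Over the 20 libraries the tested genes with the pattern most like that of Gm39465 were Igfbp5, which binds insulin-like growth factors (Pearson r of log2 CPM = 0.942), the kinase gene Sbk1 (0.935) and the tetraspanin gene Tspan11 (0.934). After subtraction of the group means r fell to 0.286, 0.130 and 0.407, so the likeness was mainly one of group means. These 20 points share the 4 groups, and each pair of values shares a library. Igfbp5 was the only gene called between genotypes at 2 months (log2 fold change -0.75 ± 0.070). At 12 months it had 439, 439, 394, 424 and 400 CPM in WT/WT against 156, 166, 148, 165 and 147 CPM in 304Q/304Q mice. As it was picked for its pattern over these same libraries, its values are given as a description. The nearest tested coding genes of Gm39465 were Pomgnt2, 22418 bases away, at 0.19 ± 0.080 (adjusted p = 0.135), and Snrk, an AMPK-related kinase gene 65803 bases away, which was lower at 12 months by a small amount (log2 fold change -0.37 ± 0.051, adjusted p = 1.90e-05, below the threshold on size).

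Miat was the one strongly altered RNA that was higher in the aged mutant. It had 7.99, 4.39, 11.5, 6.98 and 9.72 CPM in WT/WT and 9.98, 5.25, 7.86, 10.6 and 8.07 CPM in 304Q/304Q mice at 2 months. At 12 months it had 8.33, 6.71, 7.40, 6.94 and 5.27 CPM in WT/WT and 14.1, 24.5, 19.6, 16.7 and 20.1 CPM in 304Q/304Q mice. The young groups were interleaved, and every aged 304Q/304Q mouse lay above all other 15 mice. The mean was 2.74-fold that of WT/WT mice at 12 months, with a log2 fold change of 1.45 ± 0.21. At 2 months the log2 fold change was 0.05 ± 0.21, given as a description because Miat was listed for its values in these groups. The gene most like it was Onecut2, a neuronal transcription factor gene (r = 0.833, and 0.124 without group means). Onecut2 had 1.05 to 2.77 CPM in aged WT/WT mice and 18.3, 22.4, 19.997, 27.3 and 24.9 CPM in aged 304Q/304Q mice (log2 fold change 3.34 ± 0.23). It was picked by that likeness over these same libraries, so its difference is given as a description. The kinase gene Dyrk2 (0.831, and 0.623 without group means) and Gprasp1 (0.819 and 0.215), whose product sorts receptors, came next. The nearest tested coding genes on either side, Tpst2 and Pitpnb, had log2 fold changes of 0.03 ± 0.11 (adjusted p = 0.899) and 0.07 ± 0.076 (adjusted p = 0.573).

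None of the 18 tested genes of splicing and speckle proteins tied to Miat or Malat1 was called at 12 months by edgeR or by DESeq2, although 4 had an unadjusted p below 0.05, as did 3321 of all 12153 genes. Their median log2 fold change was 0.08, against -0.004 for all tested genes. Celf3, a splicing factor that Miat binds, reached an adjusted p of 0.0417 at a log2 fold change of 0.19 ± 0.060, and the SR protein gene Srsf5 reached 0.0161 at 0.35 ± 0.096. Sf1 and Qk, the other known partners, had log2 fold changes of -0.10 ± 0.060 (adjusted p = 0.282) and 0.14 ± 0.17 (adjusted p = 0.625). The most abundant genes of the list were Srrm2 at -0.02 ± 0.066 and Son at 0.15 ± 0.074, scaffold proteins of the speckle.

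**Figure D2:**
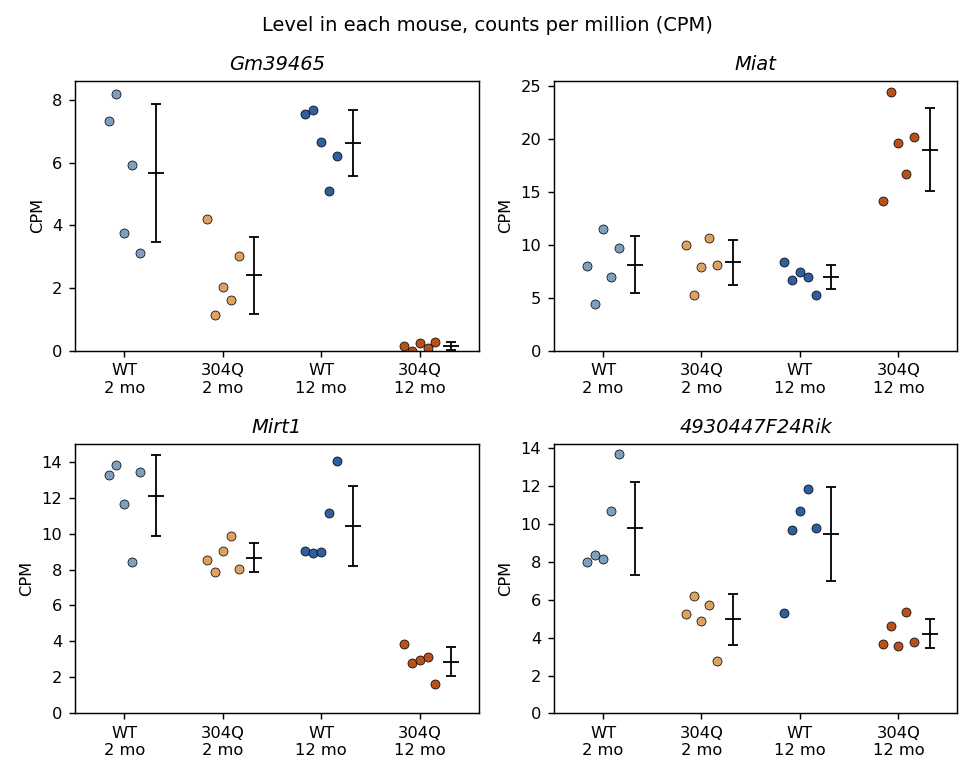
Level in CPM (y axis, linear from 0) of the 4 RNAs listed for their differences, in each of 5 mice per group (points) with the mean and SD (black). Gm39465 sits between 0 and 0.28 CPM in aged 304Q/304Q mice, and Miat between 14.1 and 24.5 CPM.

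Mirt1 was lower in aged 304Q/304Q mice. Its level was 13.3, 13.8, 11.6, 8.39 and 13.4 CPM in WT/WT and 8.54, 7.87, 9.02, 9.86 and 8.01 CPM in 304Q/304Q mice at 2 months, and 9.03, 8.93, 8.97, 11.1 and 14.04 CPM in WT/WT and 3.88, 2.79, 2.97, 3.12 and 1.61 CPM in 304Q/304Q mice at 12 months. The aged 304Q/304Q mice lay below all other mice, and the young groups overlapped only through 1 low WT/WT mouse. Between genotypes the log2 fold change was -0.48 ± 0.17 at 2 months and -1.86 ± 0.19 at 12 months. With age in WT/WT mice the log2 fold change of Mirt1 was -0.22 ± 0.17, again given as a description only.

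The nearest tested coding gene beyond the start of Mirt1 was Dusp5, a phosphatase gene that counters ERK signalling, 64313 bases away on the opposite strand, and it too fell in aged 304Q/304Q mice. Dusp5 had 163, 144, 167, 136 and 166 CPM in WT/WT and 54.8, 39.7, 47.5, 38.3 and 73.1 CPM in 304Q/304Q mice at 12 months, with no overlap between them (log2 fold change -1.61 ± 0.17, adjusted p = 5.25e-07). At 2 months its log2 fold change was -0.38 ± 0.16 (adjusted p = 0.860), and with age it was 0.25 ± 0.16 in WT/WT (adjusted p = 0.323) and -0.98 ± 0.17 in 304Q/304Q mice (adjusted p = 0.000411). Smndc1, 52652 bases away on the other side, did not pass the test (0.16 ± 0.10, adjusted p = 0.345).

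The genes most like Mirt1 over the 20 libraries were Rasd2, a small GTPase gene (r = 0.937), Sparc, a matrix glycoprotein gene (0.930), and Mobp, a myelin gene (0.923), with 0.363, 0.349 and 0.369 after subtraction of the group means. Mobp is also a member of the marker list of myelinating oligodendrocytes. In that list 3 of 8 genes, Mobp and Mal among them, were called lower at 12 months, its median log2 fold change was -0.39, and its summed level was 5182 to 5923 CPM in WT/WT against 3406 to 4709 CPM in 304Q/304Q mice. The part of this difference in the level of Mirt1 was not tested. The summed Purkinje cell markers were also lower (6569 to 7246 against 5380 to 5815 CPM, 1 of 7 called). Haemoglobin genes, which mark blood, were lower as well (113 to 240 against 91.9 to 109 CPM, 4 of 4 called). Astrocyte and Bergmann glia markers were lower too (4609 to 4824 against 3736 to 4103 CPM). So were those of interneurons (861 to 923 against 725 to 793 CPM) and of unipolar brush cells (132 to 191 against 91.2 to 99.7 CPM). Midbrain and forebrain markers summed to 27.3 to 36.6 against 20.6 to 26.2 CPM. The summed granule cell markers overlapped (4636 to 4937 against 4616 to 5089 CPM). Those of oligodendrocyte precursors, microglia and endothelial cells overlapped as well. Choroid plexus markers ranged from 10.1 to 2078 CPM between libraries of the series, in 3 of the 4 groups with a spread larger than the mean. Brainstem markers summed to at most 3.25 CPM.

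**Figure D3:**
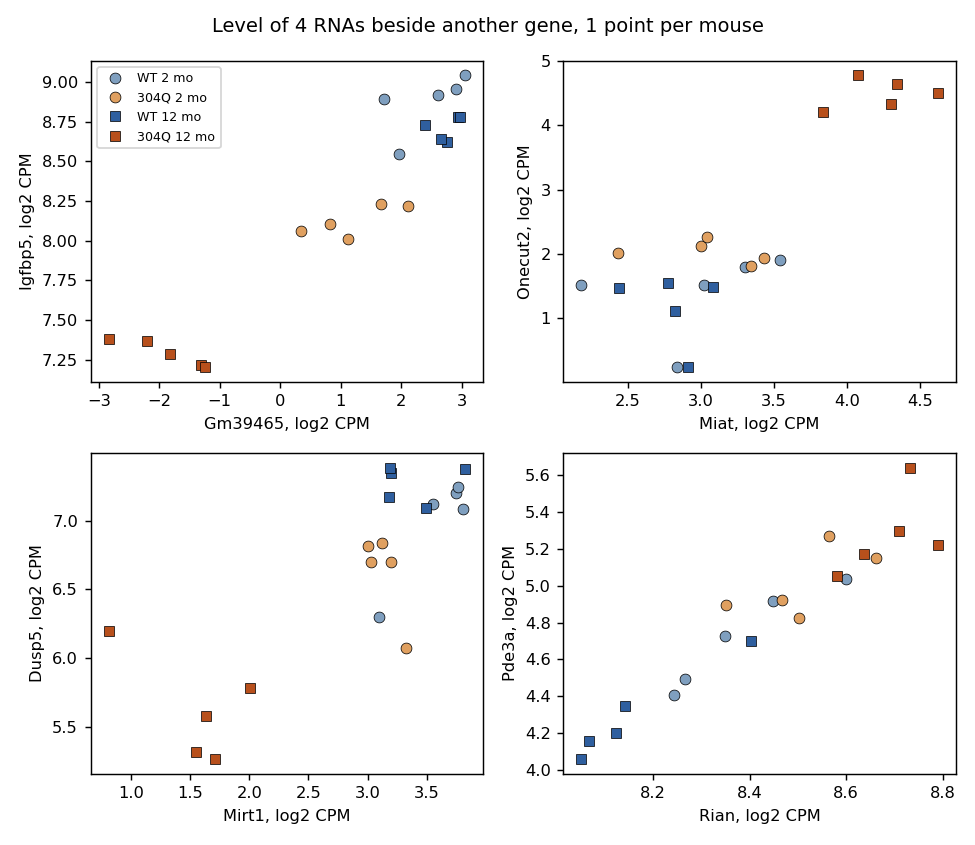
Log2 CPM of Gm39465, Miat, Mirt1 and Rian (x axes) against that of Igfbp5, Onecut2, Dusp5 and Pde3a (y axes), with 1 point for each of the 20 mice coloured by group. In the first 3 panels the aged 304Q/304Q mice stand apart from the other groups, and in the panel of Rian and Pde3a the groups line up along 1 band (r = 0.957).

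4930447F24Rik was the only member lower in every 304Q/304Q mouse at 2 months. It had 7.99, 8.35, 8.18, 10.7 and 13.7 CPM in WT/WT and 5.24, 6.22, 4.87, 5.75 and 2.77 CPM in 304Q/304Q mice at that age. At 12 months it had 5.29, 9.69, 10.7, 11.8 and 9.77 CPM in WT/WT and 3.67, 4.64, 3.58, 5.33 and 3.79 CPM in 304Q/304Q mice, and the ranges touched through a single WT/WT mouse. The young groups did not overlap, as was the case for 1.05% of all tested genes. The log2 fold changes were similar at both ages, -0.98 ± 0.21 and -1.17 ± 0.22, and the difference between them was -0.19. Bsn, in whose span it lies, differed by -0.22 ± 0.081 at 2 months (adjusted p = 0.764) and by -0.26 ± 0.082 at 12 months (adjusted p = 0.0354), below the threshold on size. The flanking genes Apeh and Dag1 were at 0.01 ± 0.095 and 0.04 ± 0.068 (adjusted p = 0.958 and 0.738). The genes most like it were Slc25a29, a mitochondrial carrier gene (r = 0.863), the kinase gene Mapk12 (0.829) and Dao, the gene of D-amino acid oxidase (0.818), with 0.563, 0.747 and 0.607 after subtraction of the group means.

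Among the imprinted RNAs Meg3 and Rian were higher in aged 304Q/304Q mice. Rian had 338, 279, 268, 282 and 265 CPM in WT/WT and 398, 419, 442, 425 and 383 CPM in 304Q/304Q mice at 12 months. The groups were disjoint, as were those of 8.94% of all tested genes, and Rian was called higher (log2 fold change 0.53 ± 0.073, adjusted p = 1.99e-05), although the value was 0.43 with 3 surrogate variables. Meg3 had 1383, 1144, 1037, 1216 and 1074 CPM in WT/WT and 1413, 1767, 1463, 1434 and 1978 CPM in 304Q/304Q mice at 12 months. These groups did not overlap either, with the highest WT/WT mouse just under the lowest 304Q/304Q mouse, and the difference of 0.46 ± 0.094 on the log2 scale passed the test (adjusted p = 0.00175, as for 12.5% of all tested genes) but not the threshold on size. Mirg, at 27.6 to 50.3 CPM in WT/WT and 34.6 to 52.2 CPM in 304Q/304Q mice, did not pass it (0.25 ± 0.15, adjusted p = 0.281, 95% interval -0.05 to 0.55). Without replicate 1 of the aged WT/WT mice, the highest of its group at 50.3 CPM, the Mirg value was 0.43 and passed (adjusted p = 0.0185), and without replicate 5 of the aged 304Q/304Q mice it was 0.13 (adjusted p = 0.588).

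At 2 months the 3 imprinted RNAs lay between 0.13 and 0.31 on the log2 scale and did not pass the test (adjusted p = 0.883 for Meg3 and Mirg and 0.897 for Rian). The genotype difference of Rian was larger at 12 than at 2 months, by 0.40 ± 0.10 (interaction of genotype and age, adjusted p = 0.0404, a level that 1.95% of all genes reached), whereas that of Meg3 was larger by 0.27 ± 0.13 without passing the test (adjusted p = 0.323). The interaction of Rian lost its pass in 14 of 20 fits that left out 1 mouse (adjusted p from 0.0515 to 0.0899). In WT/WT mice the log2 fold change of Rian with age was -0.22 ± 0.073 (adjusted p = 0.0482), which lost its pass in 13 of 20 such fits (adjusted p from 0.0508 to 0.164) and was -0.11 with 3 surrogate variables (adjusted p = 0.211), and in 304Q/304Q mice its change was 0.18 ± 0.073 (adjusted p = 0.159, and 0.00667 with surrogate variables). Meg3 was present at a steady multiple of Rian, with mean ratios of CPM of 3.91, 4.10, 4.08 and 3.92 in the WT/WT and 304Q/304Q groups at 2 months and at 12 months. The widest range of that ratio, 3.31 to 5.17, was in aged 304Q/304Q mice.

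**Figure D4:**
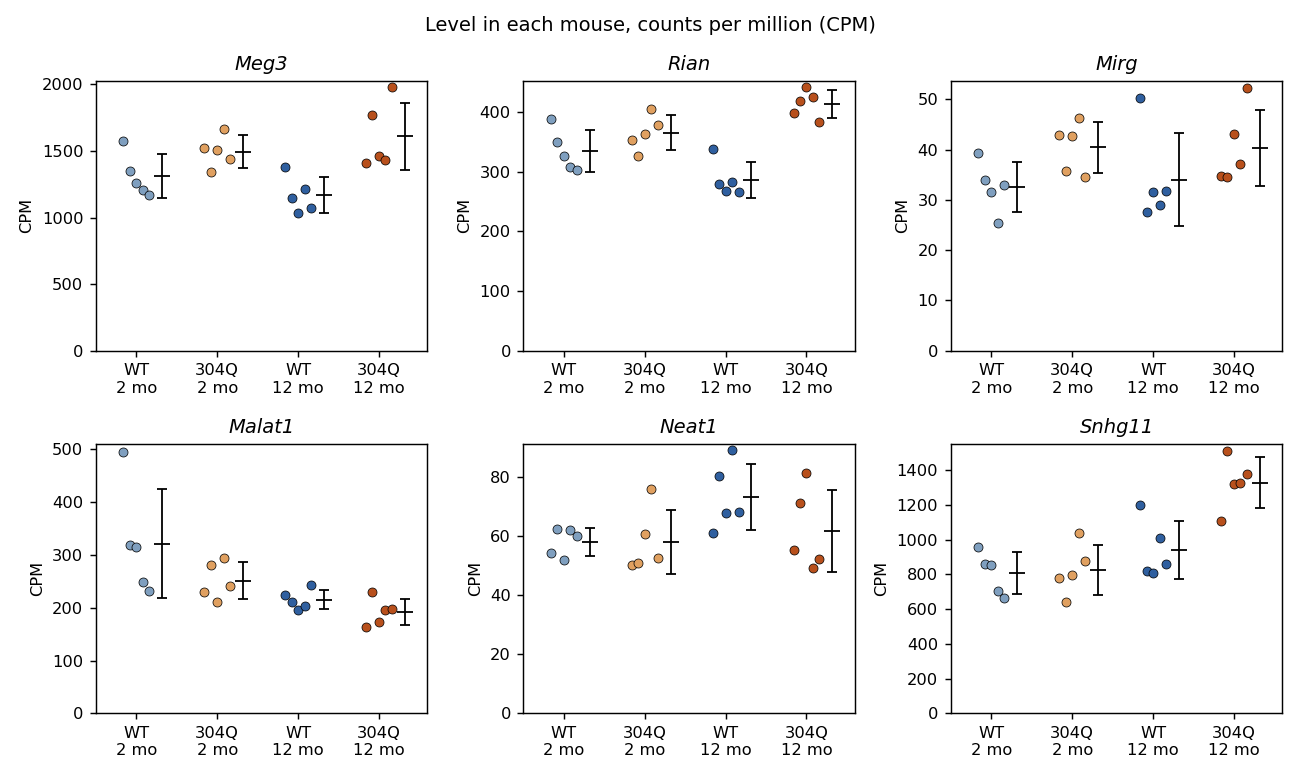
Level in CPM (y axis, linear from 0) of the other 6 RNAs in each of 5 mice per group (points) with the mean and SD (black). At 12 months the Rian values of 304Q/304Q mice, 383 to 442 CPM, lie above those of WT/WT mice, 265 to 338 CPM, whereas those of Malat1 and Neat1 overlap.

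The tested genes in and around the Dlk1-Dio3 domain did not all move in the same direction. Between Dlk1 and Dio3 only Meg3, Rian and Mirg were tested, and all of them had log2 fold changes above 0. The other tested genes lay outside that interval. Of 14 listed genes, flanking ones included, 10 were tested. At 12 months Rian was called higher and Slc25a29 lower, with a median log2 fold change of -0.03 over these 10. Slc25a29 had 21.7, 26.5, 27.0, 27.4 and 24.7 CPM in WT/WT and 15.1, 12.8, 14.4, 14.02 and 14.9 CPM in 304Q/304Q mice (log2 fold change -0.84 ± 0.098, adjusted p = 2.28e-06). Begain, the nearest tested coding gene below Meg3 and a postsynaptic protein gene, had a log2 fold change of -0.48 ± 0.084 (adjusted p = 0.000361), just under the threshold on size. Wars, a tRNA synthetase gene, was at -0.18 ± 0.058 (adjusted p = 0.0362), and Yy1, Wdr25, Ppp2r5c and Dync1h1 did not pass the test. The paternally expressed Dlk1 and Rtl1 and the more distant Dio3 and Dio3os were counted too little to be tested.

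**Figure D5:**
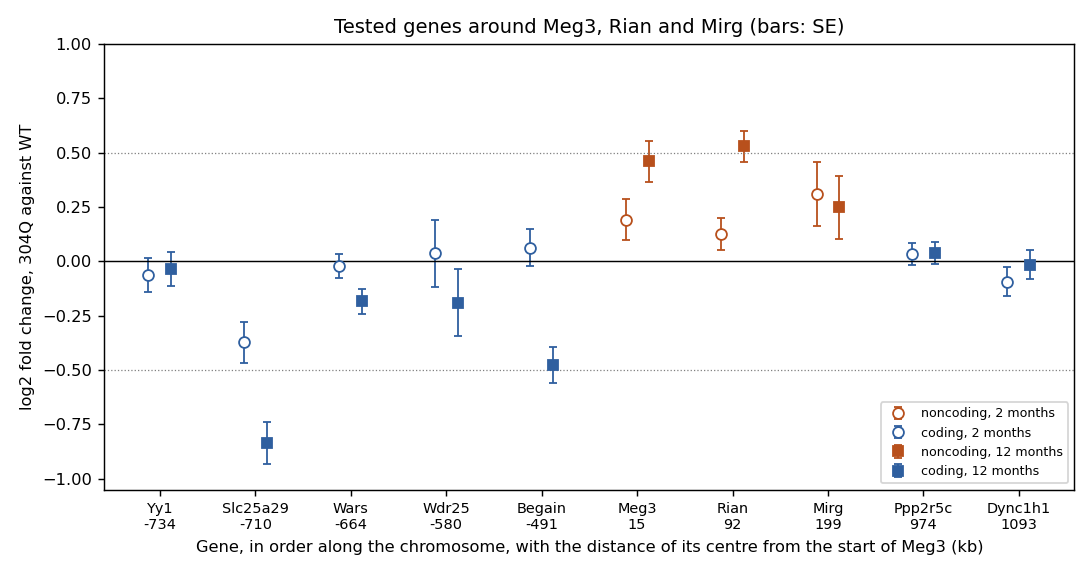
Log2 fold change of 304Q/304Q against WT/WT mice (y axis, bars for the SE) of the tested genes around Meg3, in chromosomal order with distances in kb (x axis), at 2 months (open circles) and 12 months (squares). Meg3, Rian and Mirg (orange) are above 0 at both ages, and Slc25a29 at -0.84 and Begain at -0.48 lie below it at 12 months.

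The gene most like Meg3 was Peg3, another imprinted gene on a different chromosome (r = 0.872, and 0.823 after subtraction of the group means), followed by Rian (0.829 and 0.567) and Armcx1 (0.812 and 0.601). At 12 months Peg3 stood 0.31 ± 0.091 higher in 304Q/304Q mice on the log2 scale. Rian was most like Pde3a, a phosphodiesterase gene (0.957 and 0.836), Marcks, the gene of a protein kinase C substrate (0.911 and 0.802), and Necab1, a neuronal calcium-binding protein gene (0.902 and 0.646). All 3 stood higher in aged 304Q/304Q mice, with log2 fold changes of 0.99 ± 0.14, 1.20 ± 0.21 and 1.36 ± 0.18. Like Peg3, they were picked by their likeness over these same libraries, group means included. Their differences between groups are therefore given as a description. Mirg was most like Atxn2l (0.749 and 0.657), Meg3 (0.734 and 0.682) and Peg3 (0.716 and 0.715).

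Malat1 was lower in aged than in young WT/WT mice, and Neat1 passed the test in no comparison as fitted. Malat1 had 494, 319, 315, 249 and 231 CPM in WT/WT mice at 2 months and 225, 211, 195, 203 and 242 CPM at 12 months. The groups overlapped, and a single young mouse at 494 CPM stood above the rest. Malat1 was the only member called for age in WT/WT mice (log2 fold change -0.58 ± 0.14, adjusted p = 0.0119), against 2.58% of all genes (1.40% higher and 1.18% lower), and none of the 10 had separate age groups in WT/WT mice, against 6.54% of all genes. The call was lost without that mouse (WT/WT, 2 months, replicate 1), where the value was -0.37 (adjusted p = 0.0404), and with 3 surrogate variables in the fit (-0.29, adjusted p = 0.159). In 304Q/304Q mice it went from 210 to 293 CPM at 2 months to 163 to 229 CPM at 12 months (-0.39 ± 0.14, adjusted p = 0.113), a value that passed at 0.0184 without replicate 1 of the young WT/WT mice and at 0.0152 with only these groups fitted. Genotype differences of Malat1 were -0.36 ± 0.14 at 2 months (adjusted p = 0.838) and -0.17 ± 0.14 at 12 months (adjusted p = 0.488, 95% interval -0.46 to 0.13). The first was -0.15 without replicate 1 of the young WT/WT mice and -0.22 with surrogate variables, and the second was -0.31 with surrogate variables (adjusted p = 0.124).

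Neat1 ranged from 49.1 to 89.1 CPM over all mice. Its log2 fold change between genotypes was -0.00 ± 0.13 at 2 months (95% interval -0.27 to 0.27) and -0.25 ± 0.13 at 12 months (adjusted p = 0.220, 95% interval -0.52 to 0.02), and with age it was 0.34 ± 0.13 in WT/WT mice (adjusted p = 0.0947). The genotype value at 12 months was -0.43 with 3 surrogate variables (adjusted p = 0.00790), and the age value in WT/WT mice was 0.39 without replicate 1 of the aged WT/WT mice (adjusted p = 0.0371), both past the adjusted p. The genes most like it were Gpc5, a glypican gene (r = 0.793), Bcan, a perineuronal matrix gene (0.777), and Plekhj1 (0.775). After subtraction of the group means r was 0.724, 0.709 and 0.692. Those most like Malat1 were Tmem229b (0.856), Ankrd52 (0.854) and the sodium channel gene Scn8a (0.850), with 0.698, 0.819 and 0.671 after that subtraction. Frmd8, the nearest tested coding gene at higher coordinates, had a difference of -0.19 ± 0.13 on the log2 scale at 12 months (adjusted p = 0.366).

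Of the 16 paraspeckle protein genes, all tested, none was called at 12 months by edgeR or DESeq2, 9 had an unadjusted p below 0.05, and 6 had an adjusted p of at most 0.05. Over all 12153 genes 3321 had an unadjusted p below 0.05 and 12.5% passed the adjusted p. All 6 of these were higher, each by less than the threshold on size. The RNA-binding protein genes Taf15 and Ewsr1 stood at 0.32 ± 0.095 and 0.20 ± 0.047 (adjusted p = 0.0267 and 0.00586), Tardbp, the gene of TDP-43, at 0.32 ± 0.11 (0.0478), Hnrnpa1 at 0.26 ± 0.063 (0.00777) and Nono at 0.15 ± 0.042 (0.0181). The abundant Hnrnpk and Matr3 were at 0.12 ± 0.043 and 0.21 ± 0.079 and did not pass (adjusted p = 0.0590 and 0.0794). The median of the list was 0.15, against -0.004 for all tested genes.

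Snhg11 rose with age in 304Q/304Q mice. It had 776, 642, 793, 1038 and 877 CPM at 2 months and 1106, 1508, 1319, 1324 and 1377 CPM at 12 months, without overlap, as for 7.83% of all genes (log2 fold change 0.69 ± 0.12, adjusted p = 0.000468). In that contrast 4 of the 10 members were called, against 2.28% of all genes (1.37% higher and 0.913% lower), the other 3 being Gm39465, Miat and Mirt1, which were listed for their values in these groups, so nothing is read from the count. The adjusted p alone was reached by 7.26% of all genes. In WT/WT mice it had 958, 857, 851, 705 and 665 CPM at 2 months and 1197, 816, 806, 1008 and 859 CPM at 12 months, and these overlapped (0.22 ± 0.12, adjusted p = 0.243). With 3 surrogate variables in the fit the WT/WT value was 0.49 and passed the test (adjusted p = 3.57e-05), and without replicate 1 of the aged WT/WT mice it was 0.11 (adjusted p = 0.505). The genotype difference at 12 months, 0.50 ± 0.12, was called by a narrow margin (adjusted p = 0.00628), the groups overlapped through the highest WT/WT mouse, and the interaction did not pass the test (0.47 ± 0.17, adjusted p = 0.169; 0.18 with surrogate variables, adjusted p = 0.416, and 0.57 without replicate 1 of the aged WT/WT mice, adjusted p = 0.0355). It fell below the threshold on size, to between 0.451 and 0.484, without replicate 2, 3 or 5 of the aged WT/WT mice or replicate 2 or 5 of the aged 304Q/304Q mice, and to 0.29 with 3 surrogate variables in the fit.

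Of 11 tested snoRNA host genes Snhg14, the long transcript of the imprinted Snrpn-Ube3a region, was the only other one called at 12 months (log2 fold change 0.67 ± 0.22, adjusted p = 0.0496). DESeq2 called 1 of the 11, Snhg11, and did not call Snhg14. The abundant Gas5 and Snhg17 were at -0.07 ± 0.12 and 0.17 ± 0.15 (adjusted p = 0.729 and 0.499). The genes most like Snhg11 were Bmi1, a Polycomb gene (r = 0.883), Jade1 (0.862) and Hjurp (0.846). After subtraction of the group means r was 0.836, 0.740 and 0.458. Bmi1 stood higher in aged 304Q/304Q mice (0.69 ± 0.13), given as a description because it was picked by its likeness over the same libraries. The genes flanking Snhg11, Ralgapb and Lbp, did not pass the test (adjusted p = 0.302 and 0.372).

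Among 22 tested genes of a list of other long noncoding RNAs known from brain or most tissues, A830018L16Rik alone was called at 12 months, with 3.41 ± 1.04 CPM in WT/WT and 8.58 ± 1.68 CPM in 304Q/304Q mice (SD over 5 mice each, with a log2 fold change of 1.33 ± 0.21, adjusted p = 8.40e-05). The annotation lists this gene as protein coding. The abundant 1700020I14Rik was at 0.45 ± 0.10 (adjusted p = 0.00360), Peg13, an imprinted RNA, at 0.13 ± 0.039 (0.0280), and 2900097C17Rik at 0.06 ± 0.049 (0.478). Of the genotype effects called as different between ages, 114 over all genes (0.938%), 3 were members, Gm39465, Miat and Mirt1, all of them chosen for such values. By the adjusted p of the interaction test alone these were 237 genes (1.95%) and 4 members, with Rian added.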

How the data were processed

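Poly(A)-selected RNA of 20 cerebella was sequenced. The authors aligned the reads with STAR (version 2.4.5b per the labels' processing notes) and counted them per gene with featureCounts, and the deposited values are raw counts for 29200 Ensembl genes, 29138 of them in GENCODE M21. Groups and replicate numbers came from the labels. Testing of genes averaging 50 counts or more used edgeR 4.0.16 in R 4.3.3 (TMM scaling, quasi-likelihood test, 4 group means from all 20 libraries, Benjamini-Hochberg adjustment over 12153 genes). A call needed an adjusted p not above 0.05, and a change in log2 level no smaller than 0.5 either way. RPKM used the summed exon length of each gene. Replicates are separate mice, and in no group did any pair of libraries agree within sampling noise. Like genes were ranked by Pearson r of log2 CPM (prior count 2). Group differences of genes named only for such likeness are descriptions, since the ranking used the same libraries. Named genes were the members, the 3 genes most like each, overlapping and nearest tested coding genes, and from each list the genes called between genotypes and up to 3 abundant ones. Further list genes past the adjusted p alone, Sf1 and Celf3 were named after their values were seen. Members and lists were chosen with earlier results of these data known. Alternatives were DESeq2 1.42.0 (size factors, Wald test), other count filters, 3 surrogate variables (sva 3.50.0), a fit to the contrasted groups alone, a replicate block, dropping the fold change threshold, and each library left out. On simulated counts for the genotype comparison at 12 months over 12153 genes, 22 of 50 genes changed by 0.5 on the log2 scale were called, 50 of 50 changed by 1, and 3 of 11953 unchanged ones. Some genes that this rule or these lists would name are not reported here.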

Additional observations from a re-analysis of the deposited data

Results flagged for a closer look

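In WT/WT mice at 12 months replicate 1 stood above the other 4 for Rian (338.0 CPM) and for Mirg (50.3 CPM), with a gap to the next mouse that exceeded Dixon's critical value of 0.710 of the range. These were 2 of 40 groups examined, and chance flags about 1 group in 20. The genotype effect differed between ages for 4 RNAs, given as the log2 effect at 12 months minus that at 2 months. The difference was -4.19 for Gm39465, 1.40 for Miat and -1.37 for Mirt1, which were chosen for such values, and 0.40 for Rian (edgeR interaction test, adjusted p = 0.0404, above 0.05 in 14 of 20 fits with 1 mouse left out).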

How the results depend on the processing

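The number of members called at 2 months (0) was 1 without a filter on the mean, 2 by the DESeq2 Wald test and 1 with 3 surrogate variables, and 0 to 1 when each library was left out, the 1 being 4930447F24Rik without replicate 1 of the WT/WT mice at 12 months. For the genotypes at 12 months (6) it was 4 with 3 surrogate variables, where Rian and Snhg11 were not called. It was 7 there with no threshold on the fold change, and 5 to 7 when each library was left out. For age in WT/WT mice (1) it was 0 with surrogate variables, 2 with no threshold on the fold change, and 0 to 1 when each library was left out. Uncalled values near 0 changed sign. Neat1 at 2 months was 0.000341 without the filter and 0.00142 by DESeq2. With surrogate variables Neat1 with age in 304Q/304Q mice was -0.0161, Mirg in that contrast 0.0532 and the Malat1 interaction -0.0898. With each library left out the values at 2 months ran from -0.103 to 0.207 for Miat, -0.117 to 0.048 for Neat1 and -0.0637 to 0.112 for Snhg11. With age in WT/WT mice they ran from -0.145 to 0.105 for 4930447F24Rik and -0.124 to 0.134 for Mirg, with age in 304Q/304Q mice from -0.0278 to 0.203 for Neat1 and -0.120 to 0.048 for Mirg, and in the interaction from -0.0166 to 0.288 for Malat1 and -0.177 to 0.120 for Mirg. Meg3 at 12 months passed the threshold on size without replicate 1 of the WT/WT (0.53) or of the 304Q/304Q mice (0.50), and the Snhg11 interaction was called at 0.57 without replicate 1 of the aged WT/WT mice. The causes of these changes were not tested.

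Over all genes the calls at 2 months (1) were 3 without the filter, 2 with at least 10 counts in every library of a group, 8 by DESeq2, 9 with surrogate variables and 6 with no threshold on the fold change. That last setting gave 1523 at 12 months (375), 1398 for age in WT/WT (314), 882 for age in 304Q/304Q (277) and 237 for the interaction (114). Surrogate variables gave 184 for age in WT/WT, and DESeq2 gave 173 for the interaction. Without replicate 1 of the aged WT/WT mice the calls were 595 for age in WT/WT and 265 for the interaction, without replicate 1 of the young WT/WT mice 205 for age in WT/WT, without replicate 3 of the aged WT/WT mice 75 and without replicate 5 of the young 304Q/304Q mice 176 for the interaction. Replicate numbers did not pair the mice (correlations of same-numbered libraries from -0.32 to 0.55, 2 of 20 best with their own number), and with the replicate block 0, 6, 1, 4 and 3 members were called in the 5 comparisons, as without it. With 0 to 4 counts per library, the size of the Gm39465 difference in aged mice is limited by depth.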
